A study of Danio rerio with 11 samples.

Results

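The regions described here are methylated intervals that were found in sperm and in every whole-embryo sample but in none of the adult tissues. They were chosen from the sperm peak list by overlap of at least 1 bp with a peak in the one-cell, mbt, 3dpf and MTX-3dpf lists, and by the lack of any overlapping peak in the eye, brain, heart and liver lists. This gave 9313 of the 96505 sperm peaks, or 9.65% (95% CI 9.47 to 9.84, Wilson), out of 816382 peaks in the 9 lists of the series. They are called embryonic-only peaks below. The name counts the sperm list with the embryo lists and refers to these lists alone. Presence and absence in the lists chose them, so the counts by list and the score ranks that follow from them are descriptions and carry no test.

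All samples came from Tübingen/AB zebrafish. Sperm was pooled from males, one-cell, midblastula transition (mbt) and 3 d post-fertilization (3dpf) samples were pools of whole embryos, and eye, brain, heart and liver were pooled from adult females. MTX-3dpf embryos received 400 µM methotrexate (MTX), a folate antagonist, at the one-cell stage, and all other samples were untreated. The MBD-seq data used here are 1 peak list of the methylation-enriched fraction per condition, without replicate lists, so no difference between conditions has a replicate check. Intervals given as 95% CI cover counting error only, because the lists hold peaks and not reads, and neighbouring peaks are not independent. By the labels, lane 5 held sperm, one-cell and mbt, and lane 4 held the eye, heart and liver libraries. The peak names of the brain list name both lanes, and the study places 3dpf and MTX-3dpf in a further lane. Tissue and, apart from brain, lane therefore differ together between the sperm and embryo lists and the adult tissue lists. For sperm the sex differs as well, and for the embryos the age, and these factors cannot be told apart.

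In vertebrates, DNA methyltransferases place methyl groups on the cytosines of CpG dinucleotides, and a maintenance enzyme copies the pattern to the new strand at each cell division. Zebrafish sperm DNA is highly methylated, and a methylated paternal genome enters the egg at fertilization. In MBD-seq, a methyl-CpG binding protein captures fragments that carry several methylated CpGs, so a peak marks a dense methylated stretch, and the lack of a peak does not show that a site was unmethylated. All but 1 of the sperm intervals were 201 bp long, which is the peak center with 100 bp to each side.

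Presence in the embryonic lists and absence from the adult lists seldom went together. In all, 54093 sperm peaks (56.1%) overlapped a peak in each of the 4 embryo lists, and 30164 (31.3%) overlapped no adult peak. Among the sperm peaks that no adult peak overlapped, 30.9% were in all 4 embryo lists (95% CI 30.4 to 31.4). Among the 66341 sperm peaks with an adult peak the share was 67.5% (95% CI 67.1 to 67.9). The other 20851 sperm peaks without an adult peak missed at least 1 embryo list, with 6040 found in 3 of them, 8887 in 2, 3947 in 1 and 1977 in none.

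The adult lists divided the 54093 shared peaks unevenly. Embryonic-only peaks made up 17.2% of them (95% CI 16.9 to 17.5), 11437 peaks were also in 1 adult list, 2914 in 2, 4007 in 3, and 26422 (48.8%) in all 4. Of the 11437 peaks in 1 adult list, 11161 were in brain, against 137 in liver, 109 in heart and 30 in eye. The number of embryonic-only peaks therefore turned on the brain list. Without brain in the rule it was 20474, whereas without eye, heart or liver it was 9343, 9422 and 9450. With the brain list limited to as many of its highest-scoring peaks as the heart list holds (50110), which was chosen after seeing the data, the number was 18470. In brain, the 11161 peaks that no other adult list shared had a median score at the 21.2 percentile of the brain list. For the peaks in all adult lists it was at the 70.4 percentile. The paper counts brain reads in both lanes that the brain peak names give, and eye, heart and liver reads in 1 lane each. Taken over both lanes, brain had more properly paired reads than any other adult tissue. Whether the peaks that brain alone held reflect the reads or the tissue was not tested.

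**Figure D1:**
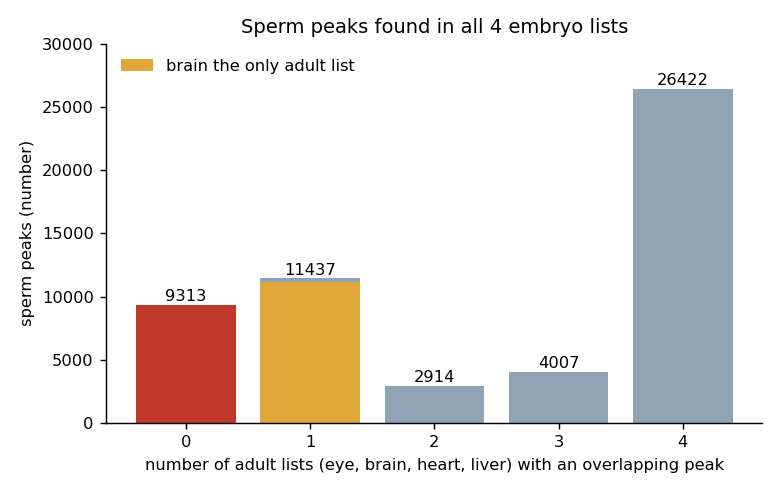
Number of sperm peaks that overlapped a peak in all 4 embryo lists (vertical axis), by the number of adult lists that held an overlapping peak (horizontal axis). The red bar is the 9313 embryonic-only peaks, and the yellow part of the next bar, 11161 of 11437, is peaks that brain alone held among the adult lists.

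The 9313 sperm intervals were overlapped by 9313 distinct peaks in each embryo list. The smallest of the 4 overlaps had a median of 157 bp, and 8458 embryonic-only peaks overlapped by at least 100 bp in every embryo list. Their centers lay a median of 20 bp from the sperm center at the one-cell stage, and of 24 bp in mbt, 21 bp in 3dpf and 22 bp after MTX. The 5 centers of a region spanned a median of 53 bp (quartiles 35 and 80), against 52 bp (31 and 89) for the peaks found in all 9 lists. List by list the order varied, since the peaks in all 9 lists had a median offset of 26 bp at the one-cell stage and of 15 bp in mbt. The rule required overlap, so no offset could exceed the interval length.

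At the edge of the rule, 52 embryonic-only peaks overlapped some embryo peak by 10 bp or less, and 13 had an adult peak closer than 10 bp. In 2 of these an adult interval touched the sperm interval without sharing a base. They were at chromosome 12, 24043159 to 24043359 (Zv9), next to a heart peak, and at chromosome 17, 4193050 to 4193250, next to a brain peak. Just outside, 25 peaks in all embryo lists overlapped adult peaks by no more than 10 bp, and 28 peaks without an adult peak missed 1 embryo list by less than 10 bp.

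Scores are the peak caller's values and were compared only as ranks within a list. Embryonic-only peaks had low scores in sperm, with a median of 34.9 (quartiles 19.9 and 61.7, range 1.35 to 746), which is the 30.4 percentile of the sperm list. Their median percentile was 46.6 in the mbt list, 39.2 in the 3dpf list and 30.8 in the MTX-3dpf list. In the one-cell list it was 67.1, and 79.1% of the embryonic-only peaks scored above the median of that list. That share was higher for the peaks with brain as the only adult list (85.4%) and for those in all 9 lists (88.1%). The lists differ in length and in how many weak peaks they hold, so the same peaks were also ranked among the 54093 that all 5 lists share. On that scale the median percentile was lowest in sperm with 13.9 and in mbt with 14.7, reached 19.9 in 3dpf and 21.1 in MTX-3dpf, and was highest at the one-cell stage with 31.4. For peaks with brain as the only adult list it was also highest there, with 43.2 against 29.8 to 32.5 in the other lists. For peaks in all 9 lists it was lowest there, with 65.6. The quartiles of the embryonic-only peaks in sperm (6.16 and 26.2) lay below the lower quartile of the peaks in all 9 lists, which was 55.4.

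**Figure D2:**
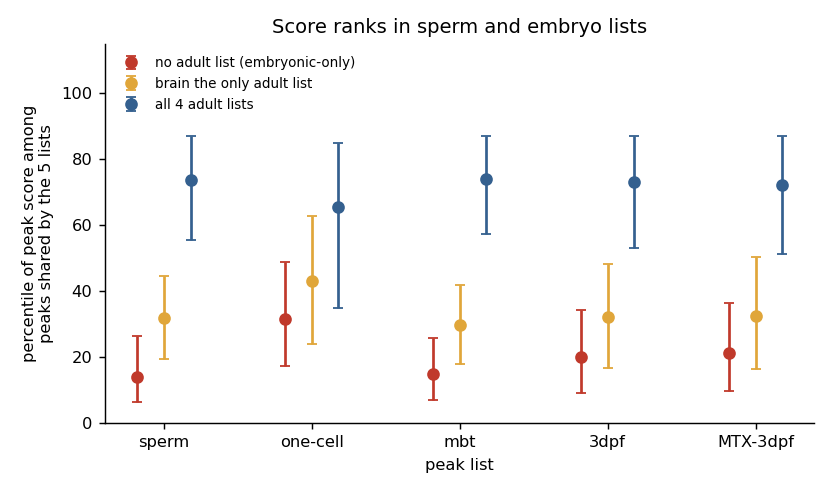
Percentile of the peak score (vertical axis) among the 54093 sperm peaks shared with all 4 embryo lists, in each of the 5 lists (horizontal axis). Points are medians and bars span the quartiles over peaks, for peaks in no adult list, in brain alone of the adult lists, and in all 4 adult lists. Embryonic-only peaks rank lowest of the 3 sets in every list, with the highest of their medians, 31.4, in one-cell embryos. The peaks in brain alone of the adult lists also have their highest median there, 43.2.

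Absence from the adult lists followed the sperm score. The 54093 shared peaks were divided by score into deciles of nearly equal number, with decile 1 the lowest scores. In decile 1 of the sperm score, 65.8% were in no adult list (95% CI 64.5 to 67.1), and in deciles 2 to 5 the shares were 44.8%, 28.2%, 16.6% and 9.11%. From decile 6 upward the share was at most 3.70%, and in decile 10 it was 0.610%, or 33 of 5413 peaks. By 3dpf score it went from 47.4% to 0.647%. By one-cell score the order was different, since decile 1 had 21.9%, decile 3 had the highest share with 30.4%, and decile 10 had 1.89%. The brain-alone class peaked higher on the sperm scale, with 20.3% in decile 1 and 42.0% in decile 3. When sperm and the embryo lists were limited to scores at or above their medians, with the adult lists whole, 488 embryonic-only peaks were left. When the adult lists were limited in the same way too, there were 6103, or 12.6% of the sperm peaks kept.

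The few embryonic-only peaks with high sperm scores mostly had an adult peak beside them. An adult peak lay within 500 bp of 1.04% of the embryonic-only peaks in decile 1 of the sperm score (37 of 3556). In deciles 9 and 10 it did so for 25 of 37 and 23 of 33, or 67.6% (95% CI 51.5 to 80.4) and 69.7% (95% CI 52.7 to 82.6). Over all scores 329 embryonic-only peaks (3.53%) had an adult peak within 500 bp, and for 156 of them all 4 adult lists had one. The median sperm score was 99.4 in these 329 and 33.9 in the other 8984. Among the 20851 other sperm peaks without adult overlap, 1947 (9.34%) had an adult peak within 500 bp. For those peaks it was not counted by sperm score, so the shares in deciles 9 and 10 have no background at like scores. The lists give centers widened to a fixed length and not the extent of each enriched stretch, so whether such a pair is 1 stretch or 2 was not tested.

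**Figure D3:**
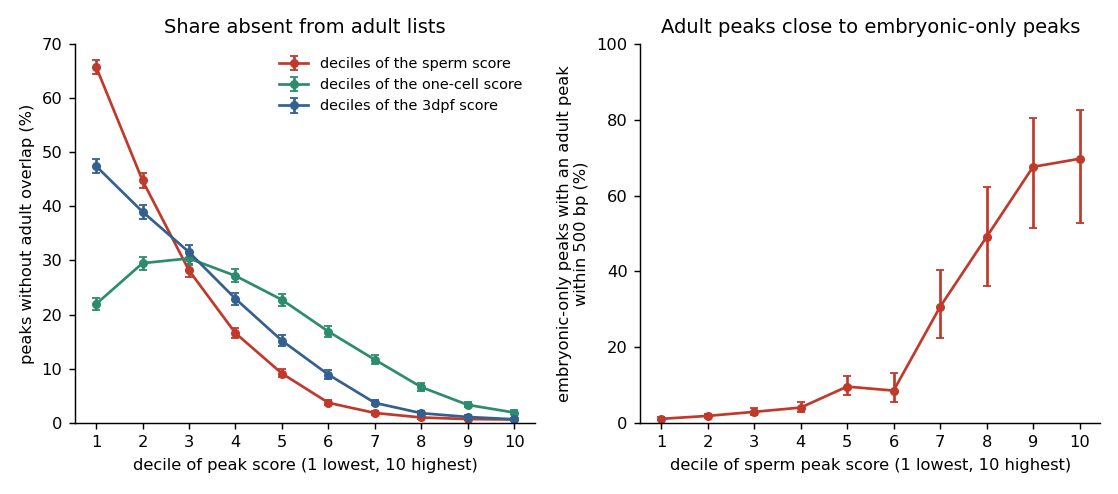
Left, share of the 54093 shared peaks that no adult list held (vertical axis, percent), by deciles of the score in sperm, one-cell embryos and 3dpf (horizontal axis). Right, share of the embryonic-only peaks with an adult peak within 500 bp (vertical axis, percent), by deciles of the sperm score. Bars are Wilson 95% intervals. The left curve for sperm falls from 65.8% to 0.610%, and the right one rises from 1.04% to 69.7%.

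Of the 9313 embryonic-only peaks, 11 (0.118%) were in the top 10% of scores of all 5 lists. Among the 54093 shared peaks that share was 5.3%. Of the 11 peaks, 9 had an adult peak within 500 bp, and the median distance was 184 bp. The highest-ranking one was at chromosome 5, 3513139 to 3513339. It scored 746 in sperm, 420 in mbt, 223 at the one-cell stage, 769 in 3dpf and 802 after MTX, at or above the 99.96 percentile of every list. Its nearest eye, heart and liver peaks were all 286 bp away and its nearest brain peak 316 bp.

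The next in rank, at chromosome 9, 51452346 to 51452546, had scores of 413 in sperm, 230 in mbt and 112 at the one-cell stage, and of 677 in 3dpf and 731 after MTX. Its distance to an adult peak was 184 bp in brain, 187 bp in heart, 197 bp in liver and 381 bp in eye. A peak at chromosome 7, 75356378 to 75356578, had scores of 424 in sperm, 215 in mbt and 114 at the one-cell stage, and of 515 in 3dpf and 528 after MTX. All 4 adult lists held a peak between 37 and 64 bp from it. The remaining peaks named by this rule were at chromosome 9, 56222421 to 56222621, with adult peaks 8 to 33 bp away, and at chromosome 12, 6718192 to 6718392, with adult peaks 170 to 189 bp away. The 5 highest-ranking regions that met the rule were therefore places where adult peaks stood beside the sperm interval, not places without adult peaks.

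Ranks were kept between some stages more than others. Over the 9313 embryonic-only peaks, Spearman's rho of the scores was 0.867 between 3dpf and MTX-3dpf and 0.646 between sperm and mbt. It was 0.296 between sperm and 3dpf, 0.306 between mbt and 3dpf, and 0.204 between sperm and one-cell embryos. Over all 54093 shared peaks the same 5 values were 0.955, 0.902, 0.736, 0.796 and 0.617. These values are across peaks, which share libraries and position in the genome, and embryonic-only peaks span a narrower range of scores. In rank among the shared peaks, 51.8% of the embryonic-only peaks (4824) stood highest in one-cell embryos. In sperm 29.5% (2750) stood lowest, and in mbt 27.5% (2557). These shares were not computed for the other shared peaks, so they have no background and show no trait of the embryonic-only peaks.

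Peaks with similar sperm scores differed between classes in the other lists. In decile 1 of the sperm score, embryonic-only peaks had a median percentile of 27.1 among the shared peaks in one-cell embryos, and peaks in all 9 lists had 6.56. In the same decile the order was the opposite at later stages, with 7.90 against 22.0 in mbt, 15.3 against 35.2 in 3dpf and 17.2 against 37.5 in MTX-3dpf. In that decile the brain-alone class lay near the embryonic-only peaks, with 23.5 in one-cell embryos and 18.1 in 3dpf. In decile 5, embryonic-only peaks had 37.9 in one-cell embryos and 27.6 in 3dpf, and peaks in all 9 lists had 31.7 and 52.6. The brain-alone class had 52.0 and 39.2 there, above the embryonic-only peaks in both. Embryonic-only peaks thus ranked above the peaks in all 9 lists at the one-cell stage and below them at 3dpf in each of deciles 1 to 5. The brain-alone class did so too, so this order was not particular to embryonic-only peaks. In decile 10 both sets were close in 3dpf, with 91.1 and 92.2.

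MTX blocks dihydrofolate reductase and so limits the supply of methyl groups from folate. The MTX-3dpf list was shorter than the 3dpf list, with 91872 against 101868 peaks. The paper also counts fewer properly paired reads for MTX-3dpf than for 3dpf. Whether peaks missing from MTX-3dpf reflect the drug or the reads was not tested. Among 12465 sperm peaks that met the rule without regard to MTX-3dpf, 3152 had no overlapping MTX-3dpf peak, or 25.3% of them (95% CI 24.5 to 26.1). It was 13.5% for the peaks with brain as the only adult list (1739 of 12900), and 2.23% for those in all adult lists (602 of 27024). The size of this difference varied with the 3dpf score. The whole 3dpf list was divided by score into quintiles. In quintile 1, the lowest, the peaks without adult overlap lacked a peak in MTX-3dpf in 62.1% of cases, and those in all adult lists in 37.8%. In quintile 2 the shares were 17.8% and 9.62%. In quintile 3 they were 0.848% and 1.93%, so the order was not kept, and in quintile 4 they were 0.820% and 0.754%. In quintile 5, 22 of 174 peaks without adult overlap (12.6%, 95% CI 8.50 to 18.4) lacked one, against 1.15% of 13478. Lacking a peak means here only that no MTX-3dpf interval overlapped the sperm interval. The distance to the nearest MTX-3dpf peak was not counted, so a peak with a shifted center cannot be told from a lost one. For the peaks with brain as the only adult list, the shares in quintiles 1 to 5 were 58.0%, 15.2%, 0.923%, 0.164% and 2.33%. In quintiles 1 to 3 these lay nearer to the peaks without adult overlap than to those in all adult lists. In quintile 5 they lay nearer to the latter. By the rule, every embryonic-only peak had a peak after MTX. In rank among the shared peaks, 57.6% of them stood higher in MTX-3dpf than in 3dpf. The median difference was 1.32 percentile points (quartiles -3.62 and 6.45). Over all shared peaks 51.4% did so, with a median of 0.21 percentile points, and over the peaks in all 9 lists 47.8%, with a median of -0.27. Within the whole lists the direction was the opposite, since the median percentile of the embryonic-only peaks was 30.8 in MTX-3dpf and 39.2 in 3dpf. It was also lower in MTX-3dpf for the brain-alone class, with 42.95 against 49.98. For the peaks in all 9 lists it was 77.4 against 80.2. The lower whole-list percentile in MTX-3dpf was therefore not particular to embryonic-only peaks.

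The other 3 embryo lists decided fewer cases. Of the sperm peaks without an adult peak that the remaining embryo lists held, 1151 of 10464 lacked a one-cell peak (95% CI 10.4 to 11.6%), 12.8% an mbt peak (1367 of 10680) and 3.82% a 3dpf peak (370 of 9683). For peaks in all adult lists the shares were 12.6% (95% CI 12.2 to 13.0), 1.12% and 0.852%, and for peaks with brain as the only adult list 9.46%, 4.51% and 1.64%. A missing mbt or 3dpf peak was thus most frequent among peaks without adult overlap, whereas a missing one-cell peak was most frequent among those in all adult lists and least frequent in the brain-alone class. As a share of each list, the regions counted by the same rule made up 5.21% of the one-cell peaks, 7.57% of mbt, 9.12% of 3dpf and 10.1% of MTX-3dpf, in numbers between 9269 and 9310.

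Adult peaks were generally some kilobases away. The nearest peak of any adult list lay a median of 5367 bp from an embryonic-only peak (quartiles 2081 and 12158), measured between interval edges. It was within 1000 bp for 1150 of them, or 12.3% (95% CI 11.7 to 13.0). For the other 20851 sperm peaks without adult overlap the median was 4419 bp and the share within 1000 bp 18.8% (95% CI 18.3 to 19.3). By tissue, the median distance was 5515 bp in brain, 8591 bp in liver, 8649 bp in heart and 9540 bp in eye. The order follows the lengths of the adult lists, which hold 79008, 50170, 50110 and 45785 peaks.

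**Figure D4:**
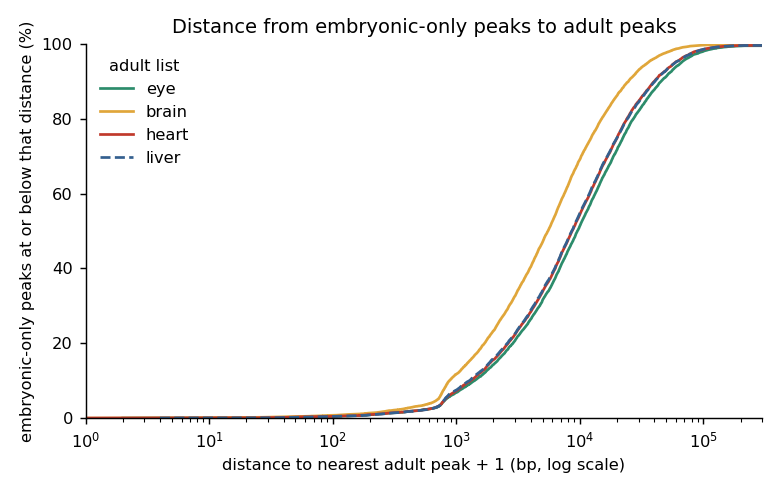
Cumulative share of the 9313 embryonic-only peaks (vertical axis, percent) at or below a given distance to the nearest peak of each adult list (horizontal axis, bp plus 1, log scale). The brain curve lies to the left of the others, with 11.7% of peaks within 1000 bp, against 7.48% in liver, 7.31% in heart and 6.82% in eye, and the heart and liver curves nearly coincide.

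Embryonic-only peaks had another embryonic-only peak as their nearest sperm peak slightly more often than other sperm peaks did. For 12.6% of them (1176 of 9301, 95% CI 12.0 to 13.3) the nearest other sperm peak was also embryonic-only, whereas the share over all sperm peaks was 9.75% and over the remaining sperm peaks 9.44% (95% CI 9.25 to 9.64). With the brain list limited to 50110 peaks, as above, which gave 18470 embryonic-only peaks, the share was 22.3%, where embryonic-only peaks made up 19.1% of all sperm peaks. For neighbours within 1000 bp the shares were 13.5% (95% CI 10.7 to 17.0) and 13.0% (95% CI 11.9 to 14.3), and these intervals overlapped, while at 1000 to 2000 bp they were 13.6% (95% CI 12.1 to 15.2) and 8.62% (95% CI 8.22 to 9.03). Within 10 kb of their centers, embryonic-only peaks had on average 1.69 other sperm peaks and 0.783 eye peaks. All sperm peaks had 1.81 and 0.920, their own overlapping peak left out. The brain-alone class had 1.76 and 0.816, and the peaks in all 9 lists 1.80 and 0.872. Embryonic-only peaks had fewer neighbours than all sperm peaks in each of the 9 lists, in 3dpf with 1.85 against 2.06.

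Embryonic-only peaks made up 9.65% of the sperm peaks, and no random placement of a set of that size was run. The counts of runs below have no background beside them and are a description only. Of the embryonic-only peaks, 7218 (77.5%) had a different kind of sperm peak on both sides or a sequence end. Another 1662 formed pairs, 345 formed runs of 3, and 68 runs of 4. The longest runs had 5 and numbered 4. In 3 of these, no peak of any adult list started anywhere along the run. They were at chromosome 13, 16583526 to 16704472 (121 kb), at chromosome 15, 32492146 to 32547914 (55.8 kb), and at chromosome 24, 27996880 to 28093054 (96.2 kb). On chromosome 13 the nearest adult peak of each of the 5 regions lay between 34144 and 73217 bp away, and on chromosome 15 between 28033 and 57895 bp. On chromosome 24 it lay between 940 and 32125 bp away. The fourth run, at chromosome 3, 6793455 to 6805223, spanned 11.8 kb and held 1 brain peak.

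The 5 regions of the chromosome 13 run had modest scores in sperm, which were 27.0, 80.7, 29.6, 46.3 and 42.8 in order of position. In one-cell embryos the same regions scored 57.9, 49.99, 25.3, 51.3 and 37.0, and in mbt 33.6, 25.1, 10.6, 29.4 and 15.7. In 3dpf the values were 40.5, 33.5, 29.7, 179 and 33.7, and in MTX-3dpf 12.6, 34.5, 31.0, 194 and 22.4. The fourth region was the only one above the median of the 3dpf list, at the 73.3 percentile, while in sperm it was at the 36.9 percentile.

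Windows of 100 kb held at most 10 embryonic-only peaks. The fullest was at chromosome 25, 7600001 to 7700000, with 10 among 19 sperm peaks, and it also held 32 one-cell, 23 mbt, 22 3dpf and 21 MTX-3dpf peaks, but 7 brain peaks and 4 each in eye, heart and liver. Next came chromosome 6, 49200001 to 49300000, with 8 among 17 sperm peaks. That window held 34 peaks in 3dpf and in MTX-3dpf, no eye peak, 1 heart, 2 brain and 5 liver peaks. Another 5 windows held 7, and 7840 windows with sperm peaks held none.

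The regions in the chromosome 6 window stood out at the one-cell stage. Their one-cell scores were 169, 47.9, 145, 185, 233, 122, 139 and 41.1 in order of position, and 6 of the 8 were above the 99 percentile of the one-cell list. Their sperm scores were 185, 63.6, 56.3, 135, 154, 63.8, 109 and 20.7, between the 19.3 and the 74.0 percentile. In 3dpf they scored 29.7, 21.3, 12.3, 136, 120, 53.7, 58.5 and 103, between the 11.8 and the 66.1 percentile. The 10 regions of the chromosome 25 window were closer to the typical values, with sperm scores from 16.1 to 147, one-cell scores from 16.4 to 77.2 and 3dpf scores from 9.71 to 116.

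All 25 chromosomes held embryonic-only peaks, between 248 and 439 each. Their share of the sperm peaks was highest on chromosome 19 with 11.3% (95% CI 10.3 to 12.4), chromosome 21 with 11.2% and chromosome 6 with 10.9%. It was lowest on chromosome 4 with 6.56% (95% CI 5.81 to 7.39), chromosome 15 with 8.47% and chromosome 7 with 8.59%. The counting interval did not reach the overall share of 9.65% on 5 chromosomes above and 3 below it. Among the shared peaks alone, chromosome 4 was again lowest with 15.0% (95% CI 13.4 to 16.8), close to chromosome 23 with 15.1%. Of the sperm peaks on chromosome 4, 43.7% were in all embryo lists. On every other chromosome that share was between 54.1% and 60.7%.

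**Figure D5:**
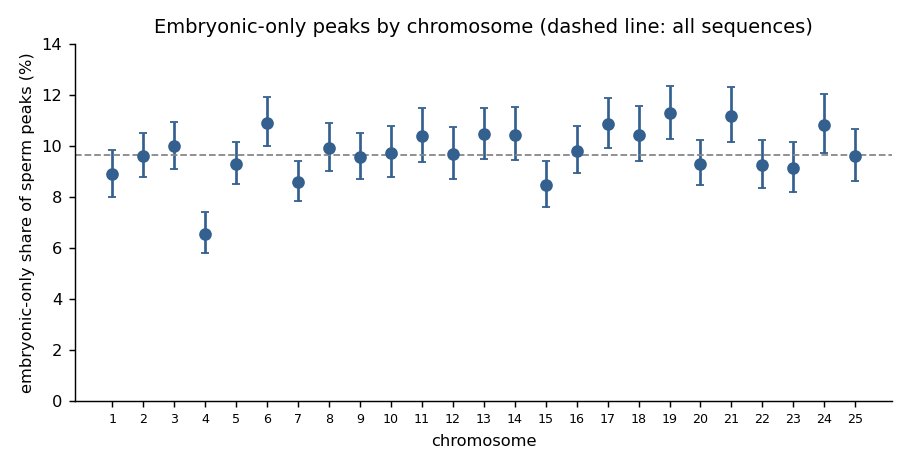
Share of the sperm peaks that are embryonic-only (vertical axis, percent) on each of the 25 chromosomes (horizontal axis), with Wilson 95% intervals as bars and the share over all sequences, 9.65%, as a dashed line. Chromosome 4 is lowest with 6.56% and chromosome 19 highest with 11.3%.

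Chromosome 4 was divided within itself. In its first 10 Mb 14.1% of the sperm peaks were embryonic-only (95% CI 11.4 to 17.4) and in the next 10 Mb 12.7% (95% CI 9.22 to 17.2), above the overall share in the former. From 20 Mb onward each stretch of 10 Mb had between 3.79% and 5.93%. Between 30 and 60 Mb brain peaks outnumbered sperm peaks in each 10 Mb, with 885 against 624, 926 against 611 and 1058 against 923, whereas in the first 10 Mb they were fewer, with 318 against 523. The share was also lower near chromosome ends over all chromosomes. It was 8.37% (95% CI 7.93 to 8.82) in the outermost 5% of the length at either end and 10.9% (95% CI 10.15 to 11.8) in the central part, from 45% to 50% of the length away from the nearer end. On sequences not placed on a chromosome, 340 of 4163 sperm peaks were embryonic-only, or 8.17% (95% CI 7.37 to 9.04), on 208 of 680 such sequences.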

How the data were processed

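The authors aligned paired reads to the Zv9 build with BWA (0.5.8c, per the submitters' notes), kept properly paired reads with a mapping quality above 5, called peaks with MACS2 2.0.10.20120703 against methylation-poor libraries, and deposited peak centers widened by 100 bp with a score. The paper's read counts list methylation-poor libraries for brain, 3dpf and MTX-3dpf and for no other condition. The unit of the deposited score is not given in the sources used here. No read depth stands in the lists. Brain has 1 list, and 2 methylation-poor brain samples have none of their own. Intervals were printed 1-based. Overlaps, ranks and distances came from scripts in Python 3.11.15 (pandas 2.3.3, NumPy 2.4.6, SciPy 1.17.1). Overlap counts were checked against bedtools 2.31.1 and tested on simulated lists. Regions and lists were chosen with earlier results of these data known. Regions were named by rule: the fullest 100 kb windows and longest runs (ties not separated), the 5 peaks with the highest lowest percentile, and the 3 chromosomes at each end. With 1 peak list per condition, no test was run, and intervals describe counting error only. No Zv9 genome or gene annotation entered the work, so genes, CpG content and sequences are not reported. Alternatives were stricter overlap or absence, score limits, equal list lengths, and lists left out.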

Additional observations from a re-analysis of the deposited data

How the results depend on the processing

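The number of embryonic-only peaks, 9313, stayed within 1.5 times under 15 of 20 alternatives. Some of the 15 could hardly change it, such as merging sperm intervals or counting the same regions in an embryo list. The number was 6103 with all lists at or above their median score, and 488 with sperm and embryo lists alone so limited. With each list limited to its 45785 best-scoring peaks it was 1314. Without brain it was 20474, and with brain limited to 50110 peaks (chosen after seeing the data) 18470. As a share of the list, these gave 12.6%, 1.01%, 2.87%, 21.2% and 19.1%. The share was 8.76% with 100 bp of overlap and 9.31% with no adult peak within 500 bp. Without the one-cell, mbt, 3dpf or MTX-3dpf list it was 10.8%, 11.1%, 10.03% and 12.9%. Counted in the one-cell, mbt, 3dpf and MTX-3dpf lists it was 5.21%, 7.57%, 9.12% and 10.1%. The median score percentile with brain limited was 70.4 in one-cell, 39.5 in sperm, 52.3 in mbt, 35.6 in MTX-3dpf and 43.5 in 3dpf. It was 29.8 in sperm with no adult peak within 500 bp, and 40.2 in 3dpf and 32.0 in MTX-3dpf with 100 bp of overlap. The share of nearest neighbours in the class was 11.5% with 100 bp of overlap and 22.3% with brain limited, beside the shares of 8.76% and 19.1% that embryonic-only peaks then made up. Chromosomes 19 and 4 had 4.66% and 2.48% at equal numbers of peaks, 23.7% and 16.0% without brain, and 21.1% and 13.5% with brain limited. At equal numbers chromosome 15 was lowest with 2.21%, and with no adult peak within 500 bp chromosome 21 was highest with 11.1%. The share with an adult peak within 1000 bp was 6.82% for eye, 7.31% for heart and 7.48% for liver alone, and 6.44% with adult lists at or above their median score. The cause of these shifts was not tested. Merging sperm intervals changed nothing, since none overlapped. No paired analysis was possible because each condition has 1 peak list. The lists give no depth, so a missing adult peak is not evidence of an unmethylated site.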

Other observations

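In windows of 1 Mb with at least 30 sperm peaks (1285 windows on chromosomes), the share of embryonic-only peaks had a median of 9.59% (quartiles 6.67 and 12.9). The windows named here were chosen after their values were seen. The highest share was at chromosome 22, 18000001 to 19000000, with 18 of 61 sperm peaks (29.5%, 95% CI 19.6 to 41.9), where one-cell embryos had 134 peaks, mbt 91, 3dpf 55, and the adult tissues between 19 and 28. Next was chromosome 5, 22000001 to 23000000, with 9 of 31. At chromosome 4, 1000001 to 2000000, it was 16 of 56, although chromosome 4 as a whole had the lowest share. In all, 8 windows held none, and 3 of them were on chromosome 4. One of these, 37000001 to 38000000, held 78 sperm peaks, 116 brain peaks and 52 to 56 peaks in each other adult tissue.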
